A study of Mus musculus with 6 samples.

Results

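The levels of 10 immediate early genes were followed through a comparison of Paraxis-/- and WT mouse embryos: Fos, Fosb, Jun, Junb, Atf3, Egr1, Egr2, Ier2, Ier3 and Dusp1. Every probe whose gene name on the array was one of these 10 was taken, which gave 12 probes on 39 spots among the 41174 probes and 43379 gene spots of the array. Of the 10 genes, 9 had a probe above background and were tested among 19335 genes; Fos was not above background in either genotype.

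Immediate early genes are transcribed within minutes of a stimulus by transcription factors that are already present in the cell, such as serum response factor with its ternary complex partners and CREB, and need no new protein synthesis. They respond to growth factors through the ERK cascade and to stress through p38 and JNK, and the cutting and cooling of a tissue can induce them, so that their mRNA in a dissected sample may hold both what the embryo expressed and what handling added. Their products are the AP-1 subunits of the Fos, Jun and ATF families, the EGR zinc-finger factors and feedback regulators such as the MAP kinase phosphatase Dusp1.

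Paraxis, also called Tcf15, is a bHLH transcription factor of somites and presomitic mesoderm. The study compared 3 pools of Paraxis-/- tissue with 3 pools of WT tissue, each combining 5 embryos, all at embryonic day 9.5 and all of the strain C57BL/6J. The tissue of both genotypes was the anterior presomitic mesoderm with the newest 4 somites, dissected, flash frozen until the genotype was known and used for total RNA, with no word in the labels on how the Paraxis allele was made. Each Paraxis-/- pool was hybridized with a WT pool on a pair of two-colour arrays with exchanged dyes, so that 6 arrays gave 3 pairs of pools: pair A (Paraxis-/- pool A over WT pool A) on the first slide, and pair B (Paraxis-/- pool C over WT pool B) and pair C (Paraxis-/- pool B over WT pool C) on the second. A pool hides the spread between its embryos, and the labels give no time between dissection and freezing and no group that differs in handling, so the part of handling in any value below was not tested.

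The 4 windows below lie upstream of members, carry sequence elements through which this class of genes is known to be induced and are shown for that reason. They are the 250 bases before the RefSeq start of each gene in GRCm38.p6, printed 5′ to 3′ along the gene's own strand, with capitals marking a TGACG core, a TGACGTCA, TGACATCA or TTACGTCA element, or a TATAAA box. The regions are chr12:85473640-85473889 on the plus strand for Fos, and on the minus strand chr4:95052223-95052472 for Jun, chr1:191183334-191183583 for Atf3 and chr17:26508473-26508722 for Dusp1.
Fos: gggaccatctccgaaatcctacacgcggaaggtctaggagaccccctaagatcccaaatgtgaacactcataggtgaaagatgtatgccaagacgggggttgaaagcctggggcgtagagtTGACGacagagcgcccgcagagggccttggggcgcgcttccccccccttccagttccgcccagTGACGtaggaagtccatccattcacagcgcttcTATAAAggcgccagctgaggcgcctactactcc
Jun: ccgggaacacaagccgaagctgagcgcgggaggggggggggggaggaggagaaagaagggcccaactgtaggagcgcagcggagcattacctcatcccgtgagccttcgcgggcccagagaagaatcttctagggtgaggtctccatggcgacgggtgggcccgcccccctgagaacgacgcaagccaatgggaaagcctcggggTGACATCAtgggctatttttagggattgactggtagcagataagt
Atf3: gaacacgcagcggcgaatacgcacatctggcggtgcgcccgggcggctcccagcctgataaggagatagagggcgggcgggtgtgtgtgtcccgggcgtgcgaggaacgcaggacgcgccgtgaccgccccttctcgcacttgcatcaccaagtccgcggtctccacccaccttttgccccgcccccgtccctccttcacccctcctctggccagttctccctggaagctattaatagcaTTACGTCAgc
Dusp1: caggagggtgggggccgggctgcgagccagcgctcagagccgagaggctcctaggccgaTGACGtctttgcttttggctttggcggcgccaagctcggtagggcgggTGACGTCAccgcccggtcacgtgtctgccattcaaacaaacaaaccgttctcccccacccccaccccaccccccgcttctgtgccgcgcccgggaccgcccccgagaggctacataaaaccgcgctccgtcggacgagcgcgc
Both strands were searched for these letters and for TGANTCA (the AP-1 site), GCGTGGGCG and GCGGGGGCG (EGR sites), for the GC box GGGCGG, for the CCAAT box and for the CArG box, which binds serum response factor. A TGACG core that lies inside TGACGTCA or TTACGTCA was not counted again. The Dusp1 window held TGACGTCA, the cyclic AMP response element, beginning 143 bases before the start, and 1.55% of the 32851 upstream windows of all genes held it. In the Jun window TGACATCA began 45 bases before the start, an element found in 2.93% of all windows. The Atf3 window held TTACGTCA beginning 10 bases before the start, found in 0.447% of all windows. The Fos window held TGACG 129 and 66 bases before the start and TATAAA 33 bases before it, letters that 17.8% and 12.4% of all windows held. The Dusp1 window also held a TGACG beginning 191 bases before the start. GC boxes lay in all 4 windows (1 in Fos, 1 in Jun, 5 in Atf3 and 3 in Dusp1) and in 32.7% of all windows. A CCAAT box lay in the Jun window and in 33.8% of all windows. A match is a description of these letters. The 4 windows were picked for holding them, so the shares of all windows are no measure for the members as a set. Windows of Fosb (177 bases), Ier3 and Junb were searched too and are not shown. Those of Fosb and Ier3 held none of the letters marked by capitals, and that of Junb held only 1 TGACG. None of the 4 windows held a CArG box (1.47% of all windows), TGANTCA (6.75%), GCGTGGGCG (0.536%) or GCGGGGGCG (2.57%), which says only that these letters are not in these stretches.

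Tcf15 itself was at a log2 level of 9.81, 9.71 and 9.76 in Paraxis-/- pools A, B and C, against 15.04, 15.23 and 15.23 in WT pools A, B and C, and its ratio was -5.41 (SE 0.09, limma adjusted p = 0.00053, n = 3 pairs). Between 28683 and 31795 spots per array were well above background in the Paraxis-/- channel and between 27080 and 30982 in the WT channel, and no spot of a member was saturated. In bulk tissue, fewer cells of a type and less RNA per cell cannot be told apart. The 10 tested markers of somites and presomitic mesoderm had a median ratio of -0.37, with Tcf15 among them.

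No member passed the test between the genotypes. Of the 9 tested, 0 had a limma adjusted p under 0.05 (adjusted over 19335 genes; 0.0207% of all tested genes passed, 0.0103% higher and 0.0103% lower), and their adjusted p lay between 0.813 and 0.991. Without adjustment 2 of the 9, Egr1 and Atf3, had p under 0.05, both higher in Paraxis-/-, where 5.07% of all tested genes had such a p, 2.34% higher and 2.73% lower. None reached a 1.5-fold difference, which 0.771% of all tested genes did. The mean ratio, log2 of Paraxis-/- over WT throughout, was positive for 8 of the 9, against 51.6% of all tested genes. Egr2, among the 8, was tested only because its Paraxis-/- measurements passed the filter. The sizes were small: the median of the members was 0.04 and that of all tested genes 0.00. The median size of a ratio regardless of sign was 0.044 for the members and 0.066 for all tested genes. For a single gene, flipping the signs of 3 pair ratios exactly (two-sided) gives no p below 0.25.

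**Figure D1:**
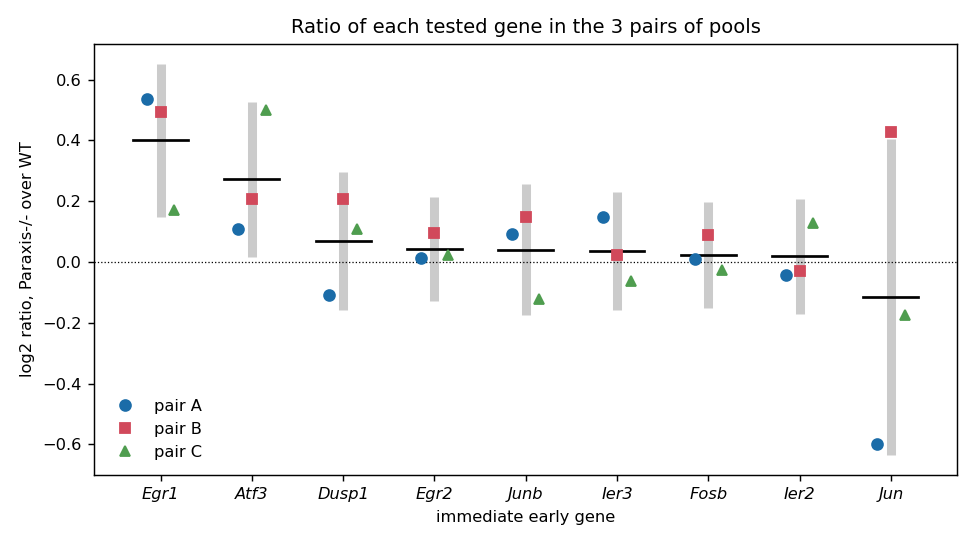
Ratio of the 9 tested immediate early genes (log2, Paraxis-/- over WT) in each of the 3 pairs of pools, as points, with the mean as a black line and its 95% confidence interval as a grey bar. Egr1 and Atf3 lie above 0 in every pair, Egr2 lies within 0.10 of 0 in every pair, and the Jun pairs reach from -0.60 to 0.43.

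Levels are given below as log2 intensity after normalization, in the order of pools A, B and C of a genotype. They can be compared between pools for 1 gene and not between genes. Pools A were on another slide than pools B and C, so the step between them holds the slide. With Agilent's processed signals, which carry neither the offset of 50 nor normalization between arrays, 35 of 54 levels moved by more than the spread between pools. Some moves shifted all pools of a gene, and Egr2 lay between 3.82 and 4.83 there. Order and spread also changed for some members, Jun and Atf3 among them. The order and spread of pools below therefore hold for the normalized levels only, unless said otherwise.

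Fos, the founding AP-1 subunit and among the first genes to answer a stimulus, was at 6.44, 6.42 and 6.40 in Paraxis-/- pools and at 6.34, 6.37 and 6.36 in WT pools. The probe, at chr12:86817900-86817959 (mm9, as the array headers name the build), is printed on 10 spots of each array. Of the 60 spot measurements of each genotype, 9 in Paraxis-/- and 1 in WT were well above background, and 4 of those 9 came from 1 array of pair A. The median intensity over all its spots and arrays was 60.5 in Paraxis-/- and 54.5 in WT, over a median local background of 39 in each. Its level was therefore not well above background in any pool, and no fold is given.

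Fosb, which pairs with Jun proteins like Fos, was at 7.18, 7.36 and 7.42 in Paraxis-/- pools and at 7.17, 7.33 and 7.39 in WT pools. The genotypes overlapped almost fully. The ratio was 0.01, 0.09 and -0.03 in pairs A, B and C, with a mean of 0.02 (95% confidence interval -0.15 to 0.20, limma adjusted p = 0.991).

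Jun, the AP-1 subunit activated by JNK, was at 9.04, 9.55 and 10.01 in Paraxis-/- pools and at 9.64, 9.59 and 9.73 in WT pools. The Paraxis-/- pools lay both below and above all WT pools, with an SD of 0.489 in Paraxis-/- and 0.071 in WT, where the median SD over all tested genes was 0.144 in Paraxis-/- and 0.137 in WT. On the second slide alone, Paraxis-/- pools B and C differed by 0.46 and WT pools B and C by 0.14, against medians over all tested genes of 0.12 in Paraxis-/- and 0.075 in WT. The spread turned round with Agilent's processed signals, where Jun was at 9.27, 9.49 and 9.56 in Paraxis-/- pools (SD 0.153) and at 9.92, 9.09 and 9.68 in WT pools (SD 0.427), so that the Paraxis-/- pools lay within the range of the WT pools.

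The ratio of Jun was -0.60, 0.43 and -0.18 in pairs A, B and C. The mean was -0.12 (95% confidence interval -0.64 to 0.40, limma adjusted p = 0.980), and without pair A it had the opposite sign, 0.13. The SD of the 3 pairs, 0.516, was above that of 96.7% of tested genes, whose median was 0.137. The probe (chr4:94715864-94715923, mm9) is printed on 10 spots of each array, all well above background in both channels. Across the spots of an array the SD of the ratio was between 0.043 and 0.077. With the Paraxis-/- pool in Cy3 and then in Cy5, the array means were -0.65 and -0.54 in pair A, 0.43 and 0.43 in pair B, and -0.10 and -0.25 in pair C. The pairs differed by more than the spots of an array or the 2 arrays of a dye swap did.

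**Figure D2:**
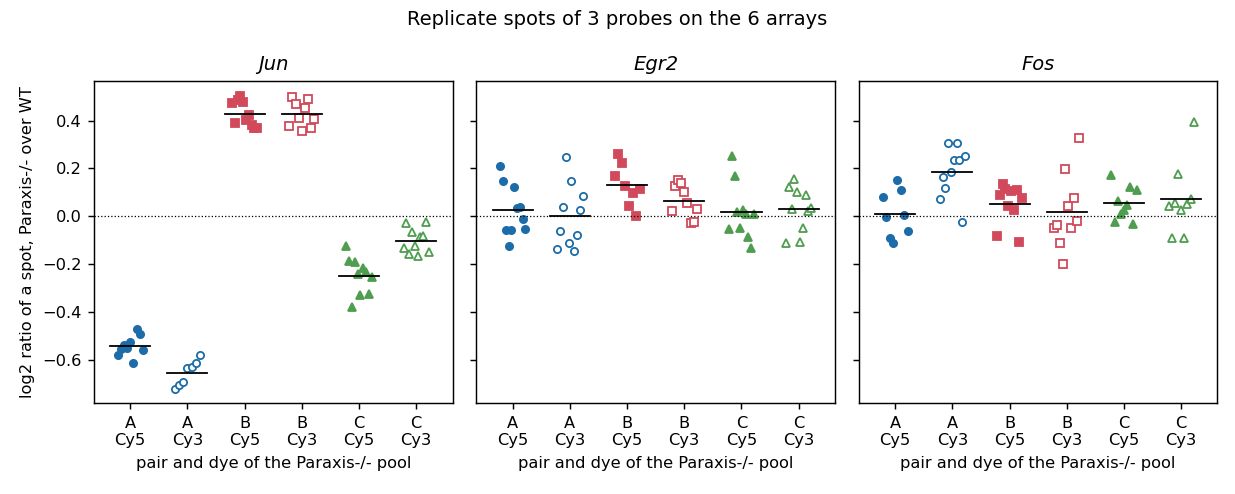
Log2 ratio, Paraxis-/- over WT, of every replicate spot of the Jun, Egr2 and Fos probes on the 6 arrays, with the array mean as a line. Each array is named by its pair and by the dye of the Paraxis-/- pool. The Jun spots of a pair stay together whichever dye carried the Paraxis-/- pool, while the Egr2 and Fos array means lie close to 0.

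Jund, a Jun family member outside the 10 and named here after its values were seen, had pair ratios in the same order, with -0.59, 0.26 and -0.18 in pairs A, B and C. Its levels were 13.17, 13.66 and 14.10 in Paraxis-/- pools and 13.75, 13.84 and 13.84 in WT pools, again with Paraxis-/- pools on both sides of the WT pools (adjusted p = 0.960 in limma).

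Junb, an AP-1 subunit that can restrain Jun, was at 10.03, 10.61 and 10.79 in Paraxis-/- pools and at 9.94, 10.64 and 10.74 in WT pools. In both genotypes pool A was lower than pools B and C, but not with Agilent's processed signals (10.45, 10.73 and 10.43 in Paraxis-/- pools, 10.32, 10.31 and 10.83 in WT pools). The ratio was 0.09, 0.15 and -0.12 in pairs A, B and C, with a mean of 0.04 (95% confidence interval -0.18 to 0.26, limma adjusted p = 0.986). A further Junb probe, which overlaps the first, gave 0.28, 0.17 and -0.06 in pairs A, B and C, a mean of 0.13 (limma adjusted p over probes 0.915). Junb had the strongest dye effect of the tested members, 0.36, which cancels in the mean of a dye swap.

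Atf3, a stress-induced bZIP factor that pairs with Jun proteins, was at 9.32, 9.46 and 9.25 in Paraxis-/- pools and at 9.21, 9.04 and 8.96 in WT pools. Every Paraxis-/- pool was higher than every WT pool, by 0.04 at the nearest. Atf3 was the 1 member of 9 without overlap, where 5.96% of all tested genes had none and 3.05% had all Paraxis-/- pools above all WT pools. The genotypes overlapped without normalization of levels between arrays, where the lowest Paraxis-/- pool less the highest WT pool was -0.04. They also overlapped with Agilent's processed signals, where this difference was -0.83. The ratio was 0.11, 0.21 and 0.50 in pairs A, B and C, with a mean of 0.27 or 1.21-fold (fold interval 1.01 to 1.44, limma unadjusted p = 0.0411, adjusted p = 0.948). Without pair C the mean was 0.16. The probe lies at chr1:192994547-192994606 (mm9).

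**Figure D3:**
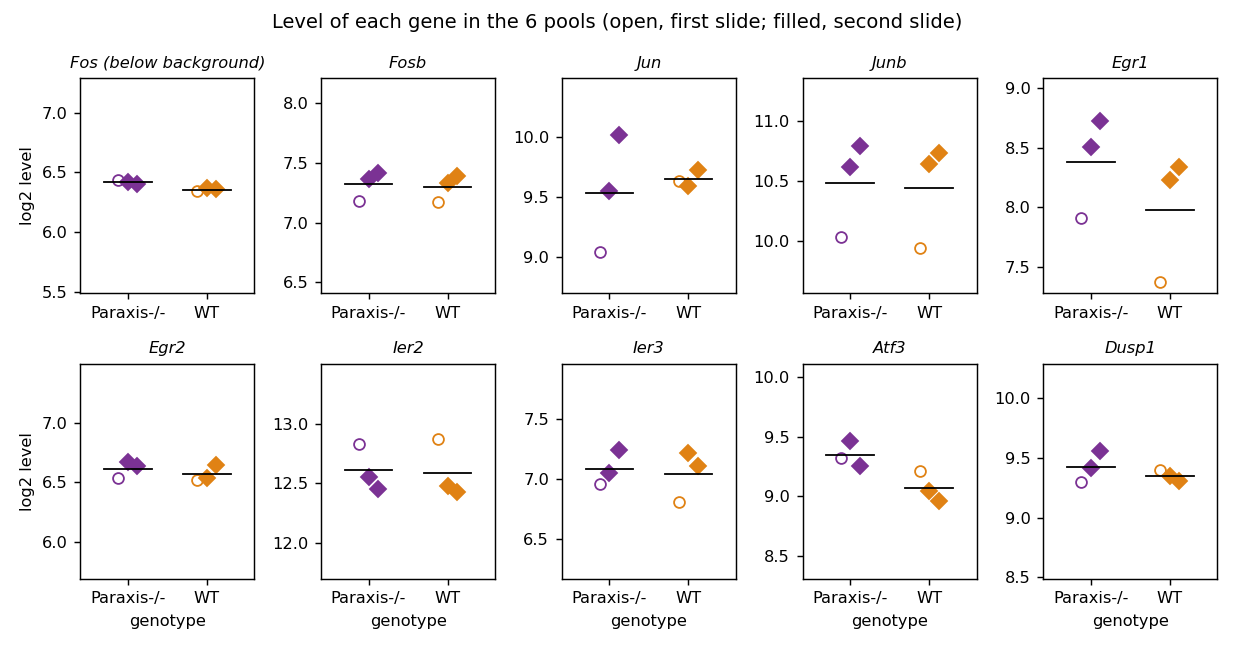
Log2 level of each member in the 3 Paraxis-/- pools and the 3 WT pools, with open circles for the first slide (pools A), filled diamonds for the second (pools B and C) and a line at the mean of each genotype. Every panel spans the same number of log2 units. At these normalized levels Jun spreads more over the Paraxis-/- pools than over the WT pools and the genotypes do not overlap for Atf3; with Agilent's processed signals Jun spreads less over the Paraxis-/- pools and Atf3 overlaps.

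Egr1, a zinc-finger factor induced through serum response factor, was at 7.91, 8.51 and 8.73 in Paraxis-/- pools and at 7.37, 8.23 and 8.34 in WT pools. On each slide the Paraxis-/- pools were higher than the WT pools, while Paraxis-/- pool A on the first slide lay below WT pools B and C on the second. The ratio was 0.54, 0.49 and 0.17 in pairs A, B and C. The mean of 0.40 was 1.32-fold (fold interval 1.11 to 1.57, limma unadjusted p = 0.00971, adjusted p = 0.813). It was the greatest mean ratio of the 9 members, and leaving out 1 pair at a time moved it between 0.33 and 0.51. All 6 arrays gave a ratio above 0, and the lowest was 0.01, in pair C with the Paraxis-/- pool in Cy3.

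Egr2, also known as Krox20 and best known from hindbrain rhombomeres and neural crest, was near the background. It was at 6.53, 6.67 and 6.63 in Paraxis-/- pools and at 6.52, 6.54 and 6.65 in WT pools. Of its 60 spot measurements per genotype, 41 in Paraxis-/- and 25 in WT were well above background. It passed the filter through Paraxis-/- alone, where 5 of 6 measurements were well above background against 3 of 6 in WT and 4 were needed. Among those 5 were measurements with 5 of 10 spots well above background, the least that counted. The ratio was 0.01, 0.10 and 0.02 in pairs A, B and C, a mean of 0.04 (95% confidence interval -0.13 to 0.22, limma adjusted p = 0.977). The same sign in all 3 pairs was seen for 3 of the 9 members (Egr1, Egr2 and Atf3, all higher), against 25.7% of all tested genes in either direction and 13.5% higher. Egr2 counts among the 3 though it was kept through the genotype where it was higher.

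Ier2, a nuclear protein of the immediate early response, was at 12.83, 12.55 and 12.45 in Paraxis-/- pools and at 12.87, 12.48 and 12.42 in WT pools. Pool A was the highest of each genotype. The ratio was -0.04, -0.03 and 0.13 in pairs A, B and C, a mean of 0.02 (95% confidence interval -0.17 to 0.21, limma adjusted p = 0.991). A further Ier2 probe gave 0.09, -0.08 and 0.06 in the 3 pairs, with a mean of 0.02. That probe was far dimmer, with a median intensity of 151.75 in Paraxis-/- and 137 in WT. The tested probe had 8199.75 and 6715.25, so the further probe is a weak check of it.

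Ier3, a stress-inducible regulator of cell survival, was at 6.96, 7.05 and 7.24 in Paraxis-/- pools and at 6.81, 7.22 and 7.11 in WT pools, and the genotypes overlapped. Its ratio was 0.15, 0.02 and -0.06 in pairs A, B and C, a mean of 0.04 (95% confidence interval -0.16 to 0.23, limma adjusted p = 0.986).

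Dusp1, which removes the activating phosphates of p38, JNK and ERK, was at 9.30, 9.42 and 9.55 in Paraxis-/- pools and at 9.40, 9.35 and 9.31 in WT pools. The genotypes overlapped. Paraxis-/- pool C was the highest of the 6 pools, whereas with Agilent's processed signals WT pool A was (9.85). The ratio was -0.11, 0.21 and 0.11 in pairs A, B and C, a mean of 0.07 (95% confidence interval -0.16 to 0.30, limma adjusted p = 0.970). Without pair A the mean was 0.16, and without pair B it was 0.0012.

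The members differed in sign and size between pairs. By pair, the number of positive ratios among the 9 was 6 (A), 8 (B) and 5 (C), with medians of 0.01, 0.15 and 0.02. Over the 6 pools, after the mean of each slide was subtracted, the correlation of 2 members' levels had a median r of 0.20 over 36 pairs of genes, from -0.82 (Junb and Ier2) to 0.82 (Fosb and Junb), and 25 of the 36 were positive. These pools share slides and dyes, and with 6 points the correlations are a description. The mean level of the 9 members, less the mean of its slide, was 0.01 in Paraxis-/- pools A and B and 0.11 in Paraxis-/- pool C, against -0.01, -0.07 and -0.05 in WT pools A, B and C. Among 14162 genes that varied at least as much as this mean, the 5 with the highest r to it over the 6 pools were Lims2 (0.996), Zfp783 (0.994), Nab2 (0.992), Ramp2 (0.992) and Ralb (0.990). They are the extremes of a search over many genes with 6 points, against a profile with an SD of only 0.064. Whether such values would arise without any shared regulation was not tested.

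Other genes of the same response were read from lists chosen for their known roles. The counts of each list stand beside these shares of all 19335 tested genes: 0.0207% passed the test. At an unadjusted limma p under 0.05, 2.34% were higher and 2.73% lower. Of 18 tested further AP-1 and related bZIP genes, 0 passed the test, 2 were higher and 1 was lower at an unadjusted limma p under 0.05, and their median ratio was 0.00; Fosl1 was below background. Maf, a bZIP factor of the large Maf group, had the greatest ratio of the list, 1.01, with 0.63, 1.33 and 1.06 in pairs A, B and C (limma adjusted p = 0.428). Its levels were 9.31, 9.80 and 10.05 in Paraxis-/- pools and 8.69, 8.72 and 8.74 in WT pools, so that all Paraxis-/- pools were higher. Cebpd had 0.22 and Atf4, a factor of the integrated stress response, had -0.20.

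Of 12 tested further immediate early transcription factors, 0 passed, 0 were higher and 2 were lower at an unadjusted limma p under 0.05, with a median ratio of -0.10. Of all tested genes, 2.34% were higher and 2.73% lower at that p. Egr4, Nr4a3 and Npas4 were below background. Klf2, induced in endothelium by flow, had -0.53, with -0.98, -0.84 and 0.24 in pairs A, B and C. The growth regulator Myc had -0.28 and Klf4 -0.25, both negative in every pair, and Bhlhe40 had 0.15.

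Among 30 tested immediate early effectors and feedback genes, 0 passed, while 5 were higher and 1 was lower at an unadjusted limma p under 0.05. The shares of all tested genes at that p were 2.34% higher and 2.73% lower. Their median ratio was 0.03. Ptgs2 and Dusp5 are among the genes of this list without a tested probe. Gadd45b, a stress-induced growth arrest gene, had the lowest adjusted p of the immediate early and bZIP lists, with a ratio of 0.77 (SE 0.09, limma adjusted p = 0.319). It was at 8.50, 9.33 and 9.54 in Paraxis-/- pools and at 7.81, 8.56 and 8.70 in WT pools, higher in Paraxis-/- in each of the 3 pairs. Errfi1, a feedback inhibitor of EGF receptor signalling, had 0.73, the kinase Plk2 had 0.32, and the kinase Sgk1, induced by glucocorticoids and serum, had -0.40.

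The cascades upstream showed no call either. Of 19 tested genes of the ERK and p38/JNK cascades and of the ternary complex factors, 0 passed and 0 had an unadjusted limma p under 0.05, with a median ratio of 0.01. Those with the smallest p included Map2k7 (-0.22), Elk3 (-0.27) and Rps6ka3 (-0.27). The 10 feedback targets of FGF and ERK signalling, which is active in the presomitic mesoderm, had 0 calls and 0 with an unadjusted limma p under 0.05. Their median was 0.35, -0.20 and -0.08 in pairs A, B and C. Spry2 had 0.89 in pair A and 0.01 and -0.01 in pairs B and C, and Il17rd had 1.02, -0.17 and -0.17 in the 3 pairs. The mean ratios of Spry1 and Spred1 were -0.15 and -0.11.

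Heat shock genes, a stress response that is separate from the immediate early one, had 0 calls among 13 tested and a median ratio of 0.02. At an unadjusted limma p under 0.05, 1 was higher and 1 lower, where 2.34% of all tested genes were higher and 2.73% lower. The co-chaperone Bag3 had 0.33 and the mitochondrial chaperone Hspd1 -0.28, while Hspa1a, the inducible Hsp70 gene, had 0.16 (0.34, 0.11 and 0.03 in pairs A, B and C) and the endoplasmic reticulum chaperone Hspa5 had -0.14.

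**Figure D4:**
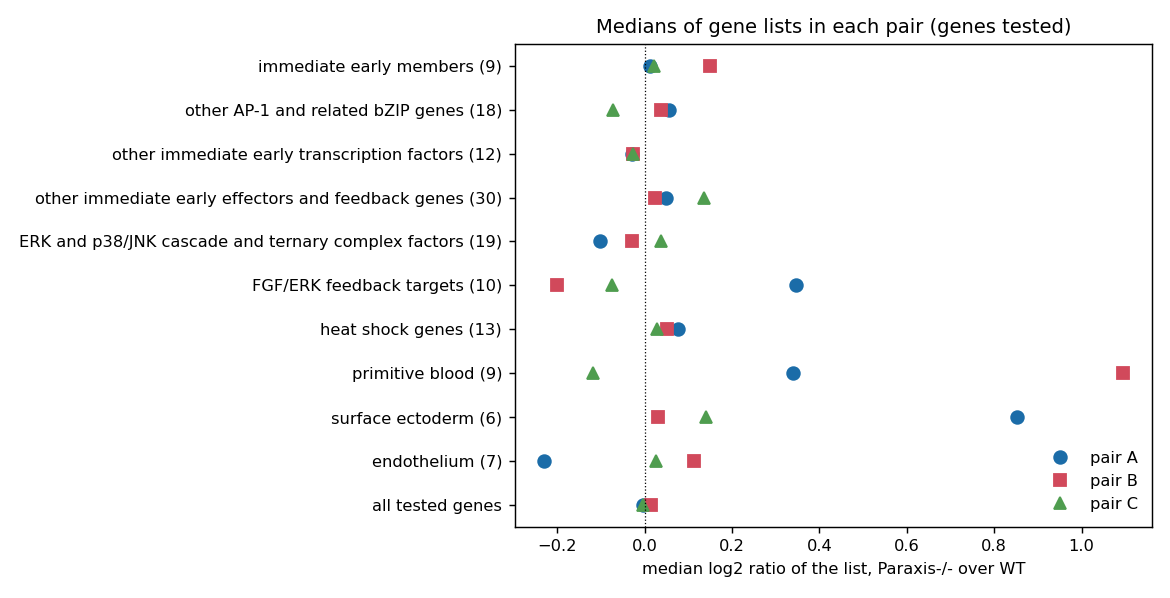
Median log2 ratio, Paraxis-/- over WT, of each gene list in pairs A, B and C, with the number of tested genes in brackets. The medians of the immediate early members lie between 0.01 and 0.15, whereas FGF/ERK feedback targets, primitive blood and surface ectoderm genes lie far apart between pairs.

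Several marker lists of other cells in the dissection had medians farther apart between pairs than the members had. All 9 markers of primitive blood had a positive mean ratio, with medians of 0.34, 1.10 and -0.12 in pairs A, B and C, and their summed linear level was between 161375 and 243162 in Paraxis-/- pools and between 94909 and 163485 in WT pools. Pair B, with the highest blood median, was also the pair with the highest member median. The median of all tested genes was highest there too, at -0.0046, 0.014 and -0.0032 in pairs A, B and C. With only 3 pairs, a link between blood and the members was not tested. The 7 endothelial markers had medians of -0.23, 0.11 and 0.03 in the 3 pairs. Their sum was 5203, 6932 and 8151 in Paraxis-/- pools A, B and C and 6948, 6566 and 6616 in WT pools A, B and C.

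The 6 surface ectoderm markers had medians of 0.85, 0.03 and 0.14 in pairs A, B and C, and their sum was between 27050 and 34415 in Paraxis-/- pools and between 16817 and 28140 in WT pools. Cdx2, a marker of posterior tissue and hindgut, had 3.11, -0.51 and -0.82 in pairs A, B and C. The other tested markers of gut endoderm and notochord did not follow it. In the same pairs Sox17 had 0.18, 0.33 and 0.37, Foxa2 had 0.49, 0.02 and 0.05, and Shh had 0.12, -0.01 and 0.39. Of 5 macrophage markers, Ptprc, Cx3cr1 and Mrc1 were below background, and the 2 others summed to between 207 and 216 in Paraxis-/- pools and between 202 and 206 in WT pools. The part of these cells in the ratios of Jun, Egr1, Atf3 and the other members was not tested.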

How the data were processed

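Per the labels' protocols, cDNA labelled with Cy3 or Cy5 was made from 250 ng of total RNA whose RNA integrity number was 7.9 or more. The authors deposited scanner files with the spot intensity of both dyes read by Agilent Feature Extraction (per the file headers, release 10.7.3.1 on the slide of pair A and release 10.5.1.1 on that of pairs B and C; per the submitters' processing notes, release 8.5.1.1) and a series matrix of log10 ratios, Cy5 over Cy3. The deposited log10 ratio of the matrix differed from that of the scanner files by at most 5e-11 and its column medians were 0, so its scale and direction are known.

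Median spot and background intensities were corrected with normexp (offset 50) and loess in limma 3.58.1 (R 4.3.3, with data.table in version 1.17.8). Mean spot intensities had been planned, but the second slide's files hold medians. The 1639 control spots and the outlier spots were left out, and replicate spots were averaged. Ratios were turned to Paraxis-/- over WT, and the arrays of a dye swap were averaged to 1 value per pair. A probe was kept if well above background in at least 4 of 6 measurements of either genotype. A measurement counted if at least as many of the probe's spots were well above background as were not. Each gene was read by its brightest kept probe. Probe names were updated through RefSeq accessions or symbols. The test was limma with Benjamini-Hochberg adjustment over 19335 genes, of which 73 had fewer than 3 pairs. Pool levels were taken after loess and Aquantile, averaging both channels of a pool.

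The 3 pools of a genotype are called biological replicates by the labels. For 2 arrays the title and the description name different pools; pairs follow the titles. Deviations of arrays from the mean of their dye orientation correlated at 0.42, 0.63 and 0.64 within a titled pair and between -0.44 and -0.12 otherwise. Subtracting a mean of 3 arrays pushes the latter below 0 by construction. Without it, the ratios of arrays correlated at 0.38, 0.28 and 0.56 within pairs A, B and C and between -0.12 and 0.08 otherwise.

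All 10 members are named. From each further list, up to 4 tested genes with the smallest unadjusted p are named, and the 5 genes most like the members' mean. Some genes that this rule picks are not reported here. The members and lists were chosen with earlier results of these data known. Alternatives covered background correction, normalization, the filter, the probe, outlier spots, the matrix values, the block, the slide, the pools and each pair left out. The main limma fit was checked on simulated pair ratios, and the other steps and settings were not. Promoter windows are from RefSeq, and 4 are shown.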

Additional observations from a re-analysis of the deposited data

How the results depend on the processing

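In all 17 alternative settings 0 of the tested members passed the threshold, and the member median lay between 0.02 and 0.11. Egr1 lay between 0.33 and 0.52 (limma adjusted p 0.149 to 0.992) and Atf3 between 0.16 and 0.35 (0.326 to 0.992), both above 0. For these genes, with 1 probe each, the filter, replicate block, described pools and probe settings leave the mean ratio unchanged by design. Their sign could not turn there. The matrix values repeat Agilent's processed signals. Signs turned for 5 members with ratios near 0 or far apart between pairs: without replicate 1 (pair A) Jun had 0.13 and Ier3 -0.020, without replicate 2 (pair B) Fosb had -0.0088 and Junb -0.014, and without replicate 3 (pair C) Ier2 had -0.035. With 1 pair left out, Fosb lay between -0.0088 and 0.048, Jun between -0.39 and 0.13, Junb between -0.014 and 0.12, Ier2 between -0.035 and 0.050, Ier3 between -0.020 and 0.086 and Dusp1 between 0.0012 and 0.16. The number of genes past the threshold over the whole array was 4, against 18 with scaling between arrays, 68 with no replicate block, which counts dye swaps as separate samples, 40 with the replicate block as random, 76 with the slide as a block, and between 0 and 2 with 1 pair left out; the cause was not tested. Egr1 had an adjusted p of 0.395 with the replicate block as random and 0.256 with the slide as a block, where its ratio was 0.43. Egr2 gave no value under the strict filter. Of 54 pool levels, 52 moved by less than the spread between pools without Aquantile, but 35 moved by more when Agilent's processed signals were used, while the ratios of the 9 members kept their sign with those signals (Egr2 had 0.27). With 3 pairs, the median SE of a ratio over all tested genes was 0.082. The signals of Fos and Egr2 lie close to background, which limits what their ratios can show.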
